A study of Xenopus tropicalis with 9 samples.

Results

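The keratin genes of adult Xenopus tropicalis, a diploid clawed frog, were followed across 9 libraries of polyadenylated RNA. The set holds the 22 rows whose symbol is krt followed by a number, of 30330 rows with a gene name. The symbols chose the members, and no measured level was used. Head and heart were each sampled in both sexes. Lung, ovary, GI tract and intestine were sampled in females, and testes in males. All libraries are labelled adult, with no treatment given. Head and heart therefore had 2 libraries each, 1 per sex, and the other 5 tissues had 1 library each. The labels do not say whether libraries came from separate animals or from pools, so the p-values rest on the spread between these libraries, which the fits share across genes. The labels also do not say what the head sample contained, or how the intestine sample was separated from the GI tract sample.

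Keratins are the intermediate filament proteins of epithelial cells. A filament forms from pairs of an acidic type I and a basic type II keratin, so an epithelium normally makes at least 1 of each. Simple epithelia such as gut lining mainly use KRT8 with KRT18 or KRT19, while stratified epithelia such as epidermis use other pairs, which change as cells move outward from the basal layer. By name, 10 members were type I (krt10, krt12, krt14, krt15, krt16, krt17, krt18, krt19, krt24 and krt35) and 11 were type II (krt5.2 to krt5.7, krt6, krt75, krt8, krt8.2 and krt80). krt222 encodes a keratin-like protein and was not typed.

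The libraries held 27625145 to 34692548 counts in named genes. A floor of 3 counts corresponded to 0.0865 to 0.109 counts per 1000000 (CPM). Oocyte genes were high outside the ovary. The median over the 19 measured oocyte markers was 113 TPM (transcripts per 1000000) in the female heart and 120 TPM in the lung, against 49.1 TPM in the ovary, 0.13 TPM in the male heart and 0.02 TPM in the intestine. Genes of gut and pancreas were present in the testes. There 7 gut and pancreas markers (fabp2, vil1, cdh17, slc15a1, chia, prss1 and cpa1) stood at 27.4% to 44.4% of their level in the GI tract. The same 7 markers stood at 1.86% to 3.52% of that level in the female head. Other genes of the gut and pancreas lists fell outside these ranges. fabp1 stood at 220 TPM in the testes, 15.1 TPM in the female head and 1019 TPM in the GI tract. chgb stood at 16.3, 113 and 7.76 TPM in the same libraries. Results that rest on these libraries are given with the values that move with them.

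Most keratin RNA was found in the heads. The 22 members together reached 12438 TPM in the female head and 12367 TPM in the male head, or 1.89% (95% Wilson interval 1.89% to 1.90%) and 1.81% (1.81% to 1.82%) of counts. The GI tract followed with 4418 TPM, then the intestine with 1898 TPM, the lung with 1528 TPM, the testes with 1431 TPM and the female heart with 1372 TPM. The ovary, with 355 TPM, and the male heart, with 326 TPM, were lowest. Intervals and floors cover counting error only. In whole-tissue RNA, fewer cells of a type and less RNA per cell cannot be told apart.

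**Figure D1:**
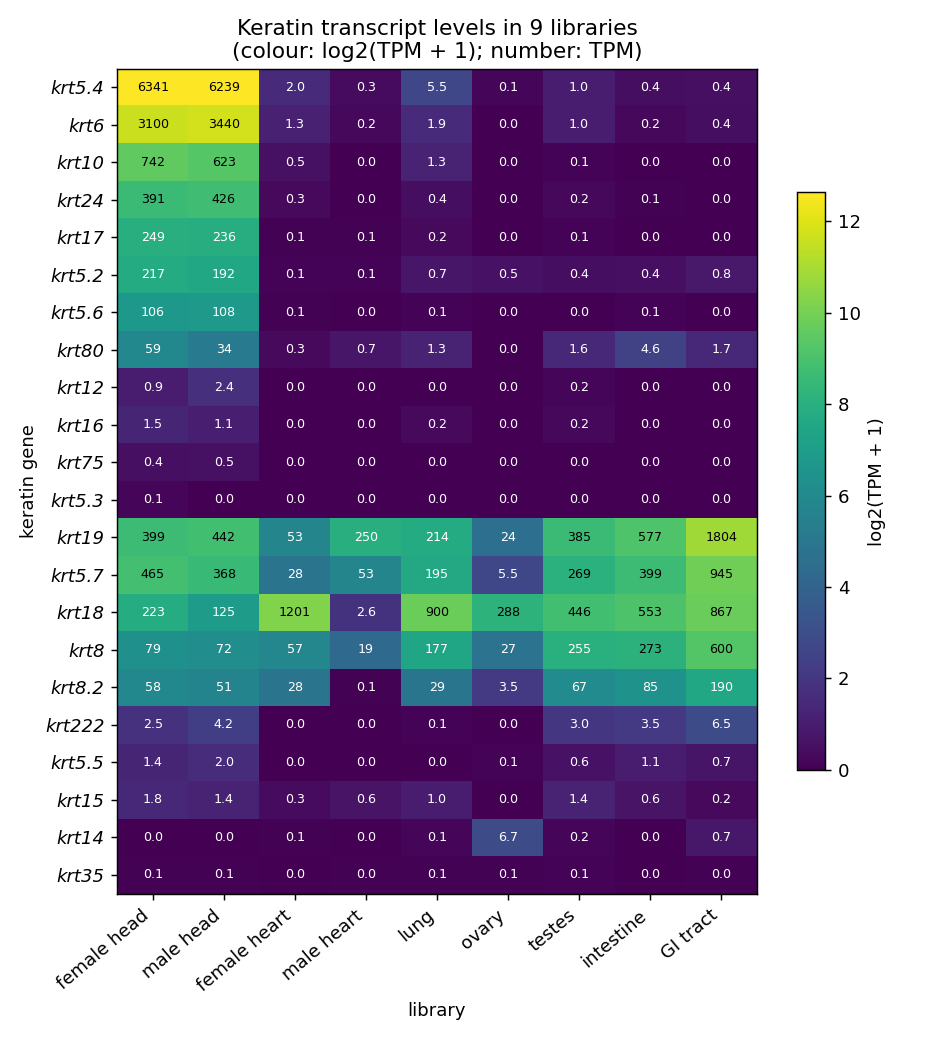
Levels of the 22 keratin genes (rows) in the 9 libraries (columns), as colour on a log scale of TPM. A block of 8 genes led by krt5.4 is high in the 2 heads, and krt8, krt18, krt19, krt5.7 and krt8.2 are present in nearly every library.

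The 8 members enriched in the heads by the rule given below are called head keratins. Their epithelium type was not measured, and no library was labelled skin. krt5.4, a type II keratin now listed as krt78.7 in RefSeq, stood at 6341 TPM in the female head and 6239 TPM in the male head (6289.9 ± 72.6 TPM, mean ± SD, n = 2). It did not exceed 5.5 TPM, its lung value, in the other 7 libraries. krt6, type II and now listed as krt78.9, measured 3100.1 TPM in the female head, 3440.0 TPM in the male head and 0.03 to 1.93 TPM elsewhere. These 2 genes alone made 75.9% of the members' TPM in the female head and 78.3% in the male head. In the head 2.78% of all named genes met the rule that picked these 2 genes.

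Another 3 members, all type I, were likewise highest in the heads. krt10, whose mammalian counterpart marks the outer, differentiating layers of epidermis, stood at 742 TPM in the female head and 623 TPM in the male head and reached 1.32 TPM elsewhere, in the lung. krt24 stood at 390.6 and 426 TPM in the female and male heads and reached 0.39 TPM elsewhere, also in the lung. krt17, which in mammals is made in skin appendages and injured epidermis, stood at 249 and 236 TPM in the female and male heads, and at 0 to 0.24 TPM in the other libraries. The same rule picked these 3 genes.

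Type II keratins of the krt5 group also included head genes. krt5.2, now listed as krt61, stood at 217 TPM in the female head and 192 TPM in the male head, and at no more than 0.84 TPM elsewhere. krt5.6 reached 106 TPM in the female head, 108 TPM in the male head and no more than 0.10 TPM elsewhere. krt80, which in mammals is found in many epithelia, was the least restricted of the head keratins, with 58.7 TPM in the female head, 34.3 TPM in the male head, 4.6 TPM in the intestine and 0.26 to 1.72 TPM in the remaining libraries except the ovary, where it was at 0 counts.

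The ratio of the head mean to the next highest tissue ranged from 10.1 for krt80 to 1694 for krt6, with 1144 for krt5.4, 1069 for krt5.6, 1047 for krt24, 1009 for krt17, 517 for krt10 and 244 for krt5.2. The denominators rest on few counts, such as 7 counts of krt17 in the lung. These 8 members met the descriptive rule for enrichment in the head, a mean of at least 10 TPM and at least 4 times the mean of each of the other 6 tissues. The same rule held for 843 of all 30330 named genes (2.78%). No member met it in the heart, lung, ovary, testes, intestine or GI tract, where the rule held for 0.495%, 0.406%, 2.38%, 2.74%, 0.122% and 0.0132% of all genes.

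Head against heart was tested in the 4 libraries in a fit of tissue plus sex that left 1 residual degree of freedom. The spread used for a gene was therefore taken from all genes together, and its p-value does not rest on a spread measured for that gene alone. By edgeR's quasi-likelihood test with Benjamini-Hochberg adjustment, 13 of the 19 members tested were higher in the head and 0 were lower, where 13.0% of 19276 genes were higher and 1.42% lower. With the 5 members at 0 counts in both hearts placed at their lower bound, the median log2 fold change of the 19 was 5.97, against 0.14 over all genes. The fold changes were 12.20 (SE 1.88, adjusted p = 9.90e-09) for krt5.4 and 12.13 (SE 1.78, adjusted p = 1.36e-09) for krt6 on the log2 scale. Without the sex term no gene of the 19276 passed (lowest adjusted p = 0.0664), while 14 members and 4670 genes (24.2%) were below an unadjusted p of 0.05. Without the sex term and with 1 library left out, 7 members were called without the female head or the male head, where 2.79% and 2.28% of genes were. Without the male heart 16 were called (15 higher and 1 lower) where 50.0% of genes were, and without the female heart 17 where 29.7% were. The calls depend on these choices. The 8 head keratins were picked by a rule on these same levels, so their separation from the hearts adds no support.

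**Figure D2:**
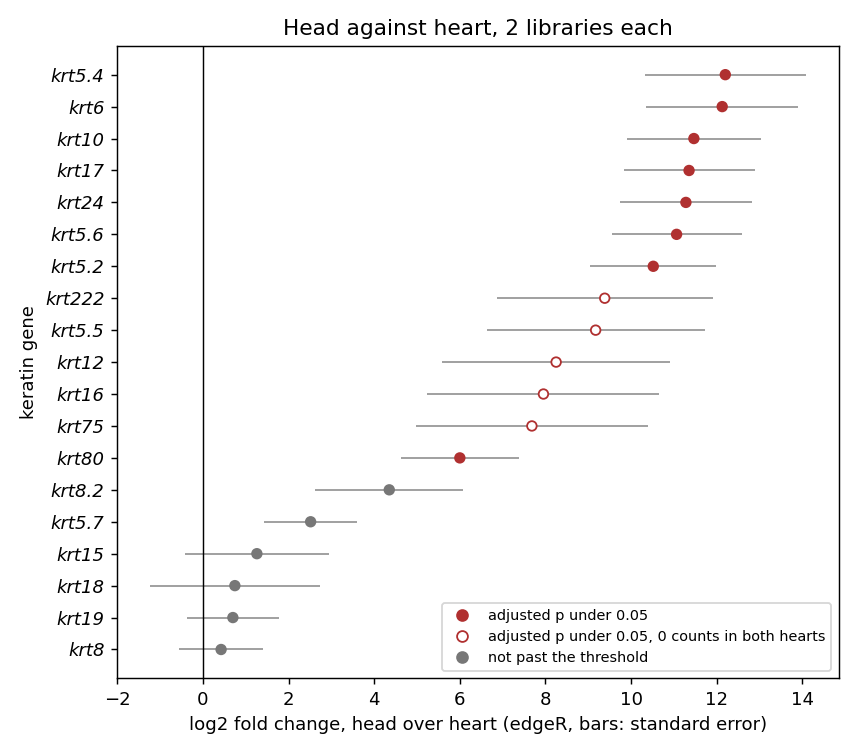
Log2 fold change of head over heart for the 19 keratins tested, from edgeR with terms for tissue and sex; bars are standard errors, red marks an adjusted p under 0.05 and open circles mark members at 0 counts in both hearts. The 8 head keratins from krt5.4 to krt80 have values of 6.0 or more with filled red points, and krt8, krt18 and krt19 lie near 0.

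The other 6 calls of this group of 8 had log2 fold changes of 11.47 (SE 1.56) for krt10, 11.35 (SE 1.53) for krt17, 11.28 (SE 1.55) for krt24, 11.06 (SE 1.52) for krt5.6, 10.52 (SE 1.47) for krt5.2 and 6.0 (SE 1.38) for krt80. In edgeR's test their adjusted p ranged from 8.55e-11 for krt17 to 3.18e-04 for krt80. The 5 remaining calls were members at 0 counts in both hearts, for which no fitted fold is given. They passed the low-count filter through the heads alone. Higher in the head was the only direction in which they could be called, so these 5 calls add no support. Against 3 counts over both hearts, krt222 was at least 73.2-fold, krt5.5 at least 62.7-fold, krt12 at least 34.0-fold, krt16 at least 26.4-fold and krt75 at least 22.1-fold higher in the head in CPM. Their levels in the heads were low, 0.44 to 4.15 TPM.

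Head against the mean of the other 6 tissues was tested in a fit of all 9 libraries, whose estimate of spread rests on the head pair and the heart pair. By edgeR, 10 of 20 members tested were higher in the head and 0 lower, where 9.96% of 23090 genes passed (9.94% higher and 0.0217% lower). They were the 8 head keratins with krt12 and krt75. The 8 were picked by a rule on these same levels. The other members, krt12 and krt75, passed the low-count filter through the heads alone, so none of the 10 calls adds support. krt12 marks corneal epithelium in mammals, and stood at 0.95 TPM in the female head and 2.42 TPM in the male head. It was otherwise detected only in the testes, at 0.17 TPM (5 counts). krt75, a hair follicle keratin in mammals, reached 0.44 and 0.50 TPM in the female and male heads, with 1 count in the testes and 0 counts in the 6 other libraries. Without the female heart 16 members passed (15 higher and 1 lower), where 37.0% of genes did, and without the male heart 16 (14 higher and 2 lower), where 43.5% did. This contrast shares its libraries with that of head against heart.

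Other keratin rows outside the symbol rule completed the head set. Of 21 such rows, 15 carried only a code that RefSeq names as a keratin and 6 had another keratin symbol. The row named krt53 by RefSeq, type I, stood at 16321 TPM in the female head and 10457 TPM in the male head, above krt5.4. krt57 stood at 942 and 1688 TPM, krt5.1-like.1 at 932 and 737 TPM, krt15.1 at 182 and 257 TPM, and krt9.1 at 137 and 155 TPM in the female and male heads. The symbol krt24 is uncertain, since RefSeq gives it to a coded row with 188 and 166 TPM in the heads and lists it as an older symbol of krt55. The symbol krt15 is listed as an older symbol of krt19, which has its own row. Keratin genes include tandem copies, and reads of near-identical copies could be split between rows, so single levels are uncertain there.

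The balance of types in the heads depended on these rows. Among the 22 members the ratio of summed type I to type II TPM was 0.193 in the female head and 0.177 in the male head. With all 43 keratin rows it was 1.75 and 1.3. In the other libraries the ratio over members was 1.40 in the testes, 1.48 in the intestine, 1.54 in the GI tract, 2.71 in the lung, 3.48 in the male heart, 8.76 in the ovary and 10.8 in the female heart. Adding the 21 rows kept type I above type II in all 7 of those libraries, at ratios of 1.90 to 11.6. Without the most abundant keratin of each type the ratio among members was 0.925 in the female heart, 0.165 in the male heart and 1.0 in the lung. It was 3.10 in the ovary, 1.52 in the intestine, 1.19 in the testes and 1.09 in the GI tract. In the female and male heads it was 0.310 and 0.289. krt18 was the most abundant type I member in the female heart, the lung and the ovary, and krt19 in the male heart.

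**Figure D3:**
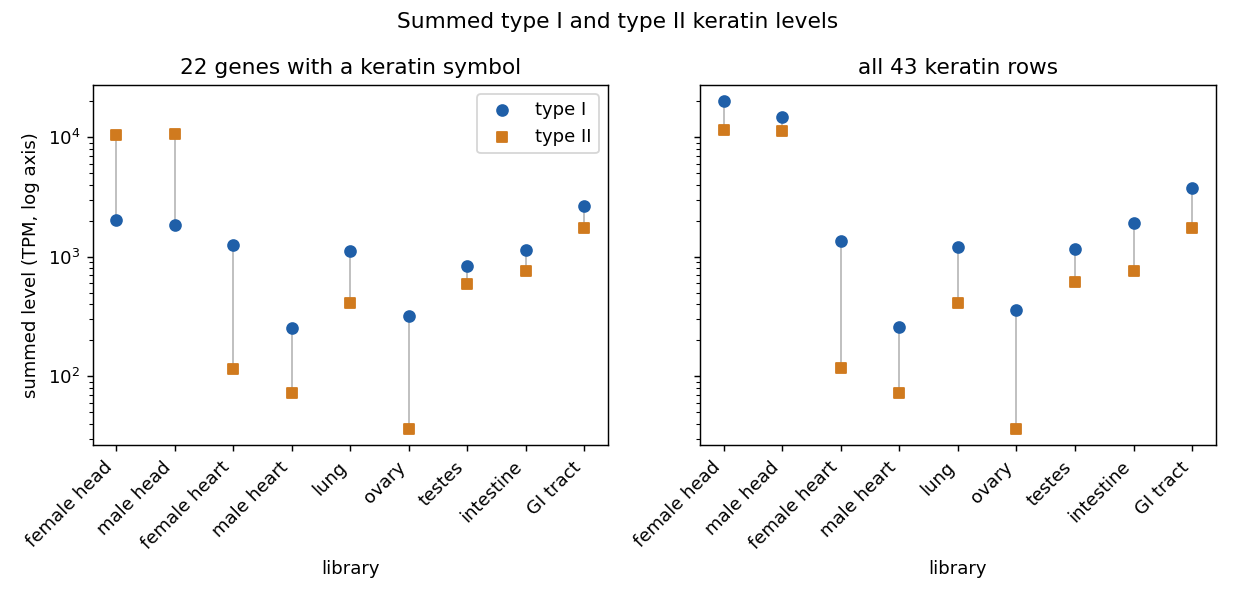
Summed TPM of type I and of type II keratins in each library, on a log axis, for the 22 members and for all 43 keratin rows. In the heads type II exceeds type I among the members, with ratios of 0.193 and 0.177, and type I exceeds type II over all rows, with ratios of 1.75 and 1.3.

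The gut held the keratins that are of simple epithelium by name, krt8, krt18 and krt19, together with krt5.7. krt19, type I and found in simple and ductal epithelium, was the top member in the GI tract with 1804 TPM and in the intestine with 577 TPM. krt5.7, type II and of the krt5 group by name, had no RefSeq match, and its epithelium type was not assigned. It stood at 945 TPM in the GI tract and 399 TPM in the intestine, and krt18, type I, at 867 and 553 TPM. krt8, the type II partner of krt18 and krt19, stood at 599.9 TPM in the GI tract and 273 TPM in the intestine, and krt8.2 at 190.3 and 84.7 TPM. The GI tract held the highest value of any library for krt19, krt5.7, krt8 and krt8.2, while krt18 was higher in the female heart and lung. Of the 8 head keratins, krt10, krt17, krt24, krt5.4, krt5.6 and krt6 were at 0 to 0.43 TPM in both gut libraries, krt5.2 at 0.41 and 0.84 TPM and krt80 at 4.6 and 1.72 TPM in the intestine and the GI tract.

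**Figure D4:**
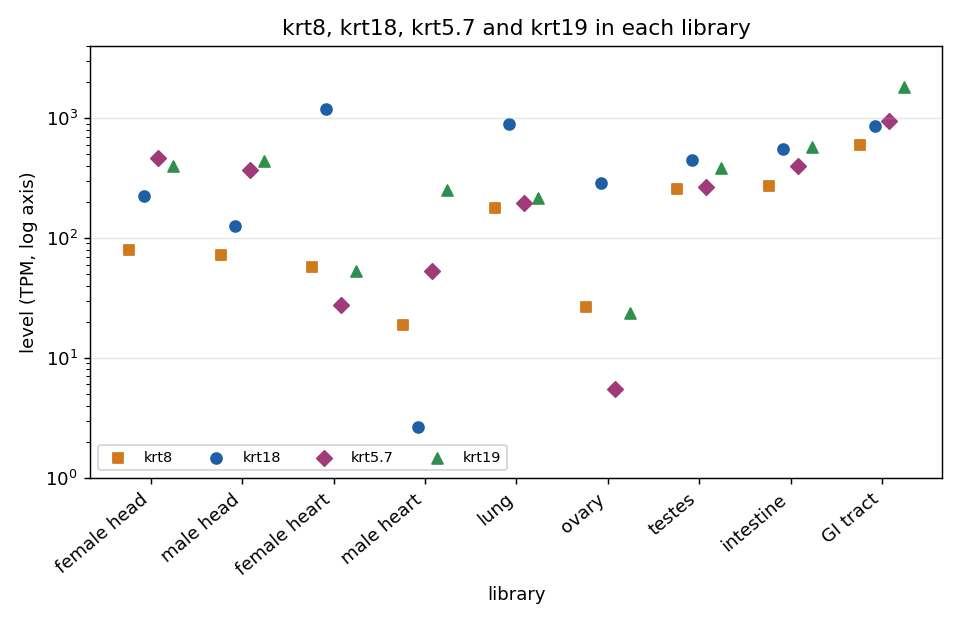
TPM of krt8, krt18, krt5.7 and krt19 in each library, on a log axis, with 1 point per gene and library. The GI tract has the highest krt8, krt5.7 and krt19, and krt18 runs from 2.64 TPM in the male heart to 1201 TPM in the female heart.

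The intestine and the GI tract were set together against the mean of the other 5 tissues. By edgeR, 0 of 20 members passed, as did 0.0% of the 23090 genes tested. Below an unadjusted p of 0.05 were 8 members and 5359 genes (23.2%). The nearest to the threshold were krt5.7 (log2 fold change 3.72, SE 0.52, adjusted p = 0.0637), krt222 (adjusted p = 0.0670), krt8 (3.04, SE 0.54, adjusted p = 0.0723), krt19 (3.59, SE 0.69, adjusted p = 0.0802) and krt5.5 (adjusted p = 0.0872). No fold is given for krt222 and krt5.5, each at 0 counts in 3 of the other libraries. DESeq2 called 11 members, where it called 17.9% of genes, of which krt19, krt222, krt5.5, krt5.7, krt8 and krt80 were higher in the gut and krt10, krt17, krt24, krt5.4 and krt6 lower. limma on log2(TPM + 1) called 2 members and 2317 genes. By edgeR 4 members were called without the female head or the male head, where 4.77% and 5.25% of genes were. It called 10 without the male heart or the female heart, where 40.6% and 33.9% of genes were, with krt19, krt222, krt5.7 and krt8.2 among the calls of all 4 fits. Taken singly against the other 6 tissues, the intestine and the GI tract each had 0 of 20 members past the threshold by edgeR, where 0.0% of genes passed. Below an unadjusted p of 0.05 were 5 members for the intestine (14.3% of genes) and 6 for the GI tract (13.7% of genes). DESeq2 called 2 and 4 members, where it called 6.15% and 4.25% of genes.

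The test did not separate the 2 gut libraries. By edgeR, 0 of 20 members differed between intestine and GI tract, where 0.0% of genes did. No member was below an unadjusted p of 0.05, where 1% of genes were. DESeq2 called 0 members and 32 genes. The fitted log2 difference of intestine over GI tract was -1.78 (SE 1.35) for krt19, -1.20 (SE 1.05) for krt8, -1.24 (SE 0.99) for krt5.7 and -0.71 for krt18. Each tissue had 1 library. Another 2 rows, known only by a code, also had their highest levels in the gut. krt20, an intestinal keratin in mammals, stood at 896 TPM in the GI tract and 553 TPM in the intestine, and krt18.3 at 160 and 213 TPM. In the heads krt20 stood at 19.5 TPM in the female and 0.22 TPM in the male.

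The lung had no keratin of its own by the enrichment rule, and 0 of 20 members passed in the lung against the other 6 tissues by edgeR, where 0.0% of genes did. No member was below an unadjusted p of 0.05, where 6.55% of genes were, and DESeq2 called 0 members and 2.14% of genes. Without the female heart 1 member passed, where 7.49% of genes did. krt18 was the top member with 899.5 TPM, followed by krt19 with 214 TPM, krt5.7 with 195 TPM, krt8 with 177 TPM and krt8.2 with 29.3 TPM. The head keratins were at most 5.5 TPM. The surfactant protein genes sftpb and sftpc stood at 6437 and 15017 TPM in the lung. Of the 12 measured genes of the lung epithelium list, 8 were at 1 TPM or more there. The other 4, sftpa1, sftpd, aqp5 and foxj1, were at 0 counts. The oocyte marker zp4, an egg coat protein, stood at 955 TPM in the lung and 1366 TPM in the female heart. krt18 in the lung stood at 74.9% of its female heart level, and zp4 at 69.9%. Other oocyte markers lay on both sides of krt18 in this ratio. Among them wee2 stood at 50.1%, zar2 at 68.2%, nanos1 at 75.3%, btg4 at 91.1%, velo1 at 98.3% and zp2 at 121.9%. The nearness of zp4 to krt18 therefore depends on the marker chosen. The other members named here were not lower in the lung than in the female heart, with krt8.2 at 106%, krt8 at 311%, krt19 at 399.8% and krt5.7 at 703%. Outside the symbol rule, the row that RefSeq names krt12.3 stood at 70.6%. The row xk81a1 stood at 3.02 TPM in the lung and 3.15 TPM in the female heart. The part of oocyte RNA in the lung keratins was not tested.

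The gonads again held krt8, krt18 and krt19, the keratins of simple epithelium, together with krt5.7. By edgeR 0 of 20 members passed between ovary and testes, where 0.0% of genes did. Below an unadjusted p of 0.05 were 5 members and 30.1% of genes, and DESeq2 called 3 members and 26.6% of genes. Without the male heart 8 members passed by edgeR, where 46.8% of genes did, and without the female heart 9, where 48.8% did. In the ovary krt18 led with 288 TPM, while krt8 stood at 26.6 TPM, krt19 at 23.6 TPM, krt5.7 at 5.5 TPM and krt8.2 at 3.48 TPM. The ratio of krt18 to krt8 was 10.8 in the ovary, 21.0 in the female heart, 5.07 in the lung and 1.45 to 2.82 in the heads, testes and gut. It was 0.141 in the male heart.

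krt14, the type I partner of krt5 in basal epidermis of mammals, was the member called in the ovary. It stood at 6.69 TPM in the ovary (147 counts), at 0.74 TPM in the GI tract (16 counts), and at 0 to 0.18 TPM in the other 7 libraries. It was at 0 counts in both heads. Its ovary level was 9.04 times that of the GI tract, the next highest tissue. In the ovary against the other 6 tissues it was higher by edgeR (adjusted p = 0.0344), with 1 of 20 members higher where 8.16% of genes were higher and 4.41% lower. The median log2 difference in that contrast was -1.87 over all genes and -3.25 over the members. The call was lost without the filter on low counts, where 3.98% of genes passed. Without the male heart or the female heart 8 members passed, 1 higher and 7 lower, where 52.1% and 55.1% of genes did. By the alternative enrichment floor of 1 TPM krt14 was the only ovary-enriched member, and no share of all genes is given at that floor.

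In the testes krt18 stood at 446 TPM, krt19 at 385 TPM, krt5.7 at 269 TPM, krt8 at 255 TPM and krt8.2 at 67.2 TPM. By edgeR 0 of 20 members passed in testes against the other 6 tissues, where 0.0% of genes did, and 2 members were below an unadjusted p of 0.05, as were 18.0% of genes. DESeq2 called 0 members and 4.37% of genes. edgeR called 3 members without the male heart and 3 without the female heart, where it called 14.9% and 19.0% of genes. These 5 levels were 51.4%, 21.3%, 28.4%, 42.5% and 35.3% of those in the GI tract for krt18, krt19, krt5.7, krt8 and krt8.2. The 7 gut and pancreas markers had a median of 32.5% of the GI tract level in the same library, and krt20 stood at 30.8%. Against the intestine the 5 keratins stood at 66.7% to 93.3%, and the markers at 14.1% to 81.3% with a median of 42.7%. Other listed gut and pancreas genes fell outside that range. fabp1 stood at 220 TPM in the testes and 47.8 TPM in the intestine, and prss3 at 26.0 and 4243 TPM. The pancreatic gene prss1 stood at 13957 TPM in the testes. The part of gut RNA in the keratins of the testes was not tested.

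The hearts differed by library. The female heart held 1201 TPM of krt18, the highest value of any library, while the male heart held 2.64 TPM. krt19 ran the other way, with 53.5 TPM in the female heart and 249.7 TPM in the male heart. krt5.7 stood at 27.8 and 52.7 TPM, krt8 at 57.1 and 18.7 TPM and krt8.2 at 27.6 and 0.05 TPM in the female and male hearts. The heart muscle gene myl7 was high in both, at 19795 TPM in the female and 28174 TPM in the male. Oocyte markers were in the female heart at a median of 113 TPM and in the male heart at 0.13 TPM, and their part in these differences was not tested. Against the other 6 tissues the heart had 0 of 20 members past the threshold by edgeR, where 0.0% of genes passed, with 3 below an unadjusted p of 0.05, as were 14.1% of genes. DESeq2 called 4 members, all lower, and 10.5% of genes. edgeR called 1 without the male heart and 7 without the female heart, all lower, where it called 12.7% and 19.3% of genes.

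The sexes were compared in those 4 head and heart libraries. By edgeR, 0 of 19 members passed, where 1.62% of 19276 genes did (1.55% higher and 0.0726% lower in females). Below an unadjusted p of 0.05 were 2 members and 5.7% of genes. The 2 members were krt18, with a log2 difference of female over male of 4.63 (SE 1.71, adjusted p = 0.261), and krt8.2, with 4.11 (SE 1.74, adjusted p = 0.516). DESeq2 called both, with adjusted p of 0.00982 and 0.039, where it called 2.84% of genes, and limma called neither. In the same edgeR contrast 17 of 19 oocyte markers were higher in females (median log2 difference 8.26), and their part in the keratin differences was not tested. In the heads alone, krt18 stood at 223 TPM in the female and 125 TPM in the male. Sex and library cannot be told apart here, because each tissue had 1 library per sex.

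The keratins of simple epithelium, and krt5.7, were also present in the heads. In the female and male heads krt19 stood at 399 and 442 TPM, krt5.7 at 465 and 368 TPM, krt8 at 79.0 and 71.8 TPM, and krt8.2 at 58.4 and 51.1 TPM. The heads were above both hearts for these 4 genes, while for krt18 the hearts lay on either side of the heads. In head against heart, 6 of the 19 members tested did not pass. They were krt8.2 (log2 fold change 4.35, SE 1.73, adjusted p = 0.0718), krt5.7 (2.52, SE 1.08, adjusted p = 0.106), krt15, krt18 (0.75, SE 1.98), krt19 (0.70, SE 1.08) and krt8 (0.43, SE 0.97). For krt18 the direction turned to -2.41 without the sex term. The members under 10 TPM in every library were krt12, krt14, krt15, krt16, krt222, krt35, krt5.3, krt5.5 and krt75, 9 in all, of which krt35, a hair keratin in mammals, reached 0.10 TPM and krt5.3 reached 0.13 TPM. krt222 was highest in the GI tract, at 6.50 TPM, and was at 0 counts in both hearts and the ovary. Of the 22 members, 14 had 0 counts in at least 1 library.

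RefSeq's gene order in the assembly UCB_Xtro_10.0, used for names and neighbours only, placed 11 of the 22 members, and the other 11 were not placed. RefSeq lists 24 keratin genes among 28 consecutive genes in a cluster that holds krt17, krt19, krt12 and krt222. A second cluster has 16 keratin genes among 19, and holds krt18, krt8, krt6, krt5.4, krt5.2 and krt80. krt8.2 lies beside krt18.3. In the second cluster krt18 and krt8 are adjacent and were both found in every library. krt6 and krt5.4 are adjacent and were both highest in the heads. The pair where these meet, krt8 and krt6, differed, with krt8 at 599.9 TPM and krt6 at 0.38 TPM in the GI tract.

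Genes that work with keratins were read from lists chosen with earlier results of these data known. In head against heart, 10 of 14 tested genes of the cornified envelope and barrier list were higher and 0 lower (median log2 fold change 5.7), where 13.0% of all genes were higher. They included tp63, the regulator of stratified epithelium, which stood at 80.3 TPM in the female head and 134.6 TPM in the male head, and tgm1 and grhl3. Also called were ndrg1 and degs3, which were higher in the intestine (1919 and 57.4 TPM) than in the heads (means of 202 and 36.25 TPM). The list summed to 2067 TPM in the intestine, against 642 and 726 TPM in the female and male heads. Its median was 1.595 TPM in the intestine, against 31.55 and 32.17 TPM in those heads. Of the desmosome and keratin anchoring list, 9 of 19 tested were higher and 0 lower (median 3.29), among them dsp, which ties keratin filaments to desmosomes, at 274 ± 18.8 TPM in heads and 4.34 ± 2.53 TPM in hearts (n = 2 each). Of the other intermediate filament genes, 6 of 17 tested were higher and 0 lower, namely the neurofilament genes nefm, nefl, nefh and ina and the lens filament genes bfsp1 and bfsp2. vim, the mesenchymal filament gene, did not pass, with 420 ± 46.9 TPM in heads and 259 ± 166 TPM in hearts.

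Lists for other cell types the samples could hold gave the following counts in the same contrast. Of the simple epithelium list 6 of 16 tested genes were higher, and of sperm and testis 3 of 9. Of intestinal epithelium 7 of 10 were higher, of liver 3 of 4 and of exocrine pancreas 1 of 5. In each of these lists 0 were lower, where 13.0% of all genes were higher and 1.42% lower. Some calls rest mainly on the female head, such as slc15a1 (401 and 1.14 TPM in the female and male heads), apoa1 (41.9 and 0.97 TPM) and cel (84.7 and 2.45 TPM). Others, such as muc2 (36.6 and 77.8 TPM) and tf (534 and 810 TPM), were higher in the male head. Of the lung epithelium list 3 of 10 were higher and 2 lower, and of mesothelium 0 of 6 were higher and 1 lower. Of the oocyte list 0 of 19 were higher and 11 lower, with a median of -3.78. The part of these cell types in the keratin calls was not tested.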

How the data were processed

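RNA was measured by sequencing in 9 libraries, grouped by the tissue and sex labels. The authors deposited counts per gene and TPM per gene, and per the submitters' processing notes RSEM 1.3 and deepTools were used, with no role given for either. The aligner, genome build or annotation was not given in the sources used here, and coordinates are therefore left out. The deposited counts are whole numbers and are read as rounded expected counts, because 1272 values pair a TPM above 0 with a count of 0. The deposited TPM values total 1000000 per library. A row of reads with no gene name (0.0113% to 1.78% of counts) was left out of library sizes and tests. No library column was left unused.

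Tests used edgeR 4.0.16 (quasi-likelihood F test, TMM, default low-count filter, Benjamini-Hochberg threshold 0.05 over all genes tested). Head against heart and female against male came from 1 fit of 4 libraries with tissue and sex as terms. The other contrasts came from 1 fit over the 9 libraries with a coefficient for each tissue and 2 residual degrees of freedom. It takes the spread of a tissue sampled once to be that of the head and heart pairs. The alternatives were RLE size factors, no filter, DESeq2 1.42.0, limma 3.58.1 on log2(TPM + 1) or log2(TPM + 0.1), no sex term and leaving out each head or heart library. Replicate numbers were assigned in accession order and do not pair libraries, and sex served as the block. The scripts were tested on simulated data. Members with at least 10 TPM in a library are described singly, and the others by range and count. Members and lists were chosen with earlier results of these data known. RefSeq, matched by symbol or older symbol for 13 of 22 members, gave names and neighbours.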

Additional observations from a re-analysis of the deposited data

Results flagged for a closer look

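The level of krt5.7 was higher in the female than in the male library of the head, and lower in that of the heart. The female minus male difference was 96.8 TPM in the head, where the female library held 465 TPM and the male library 368 TPM, and -24.9 TPM in the heart, where they held 27.8 and 52.7 TPM. By edgeR the log2 difference of female over male for krt5.7, fitted over both tissues, was -0.39 (SE 1.03, adjusted p = 0.993). krt80 ran the same way, at 58.7 and 34.3 TPM in the female and male heads and 0.26 and 0.69 TPM in the female and male hearts. The difference between the tissues was not tested, and each sex had 1 library per tissue.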

How the results depend on the processing

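The replicate block here is sex. Without the replicate block 0 keratins and 0 genes passed in head against heart, in place of 13 and 2784. Over all genes limma gave 4637 calls with a pseudocount of 1 and 5244 with 0.1. Leaving out a library needed the fit with no replicate block, and gave 458 to 10396 genes and 7 to 17 keratins. The values were 559 and 7 when the female head was left out, 458 and 7 for the male head, 10396 and 16 without the male heart, and 6091 and 17 without the female heart. DESeq2 called 2 keratins and 2.84% of genes in female against male. For the gut pair DESeq2 called 11 keratins and 17.9% of genes, and limma with a pseudocount of 1 called 2 and 10% of genes. Between ovary and testes DESeq2 called 3 keratins, where 26.6% of genes were called. There limma called 2 and, with the pseudocount of 0.1, 4, where 22.7% and 26.5% of genes were called. Between intestine and GI tract leaving out a library gave 0.

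Summed over the 7 contrasts of a tissue with the other 6, the calls over all genes were 5203. They became 18057 with DESeq2, 10919 and 12771 with limma at pseudocounts of 1 and 0.1, 2536 without the filter, and 6475 to 37191 with a library left out. Among the 20 keratins tested DESeq2 called 4 in the GI tract, 4 in the heart, 2 in the intestine and 6 in the ovary. It called 4.25%, 10.5%, 6.15% and 37.1% of all genes in those contrasts. For the ovary limma called 2 and 7 keratins at pseudocounts of 1 and 0.1, where 18% and 32.1% of genes were called. Without the filter 0 keratins passed there, where 3.98% of genes did. With a library left out the keratin counts were 2 to 7 in the GI tract, 8 to 16 in the head, 0 to 7 in the heart, 0 to 9 in the intestine, 0 to 1 in the lung, 1 to 8 in the ovary and 0 to 3 in the testes. The highest keratin count for each tissue came from a fit without a heart library. In each such fit a larger share of all genes was also called than in the fits without a head library. The high ends of these ranges are therefore not particular to keratins. At 2 times every other tissue 4 keratins were enriched in the GI tract, and at 1 TPM 1 was in the ovary. No share of all genes is given at these settings. RLE factors moved the median log2 difference of all genes in the lung contrast from 0.26 to -0.19.

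Among the fold changes of head against heart, 111 of 138 alternative values kept direction and, where tested, side of the threshold. Of the rest 11 passed it newly, 10 no longer passed and 6 reversed. The 138 include TPM ratios of the male pair alone, which had no test and so no side of the threshold. krt18 became -2.41 with no replicate block, and in that fit -2.87 when the female head was left out, -1.99 for the male head and -3.36 for the male heart, but 5.05 without the female heart. krt19 became -0.53 without the female heart, and krt8 became -0.18 without the male heart. The cause was not tested. Values with all 43 keratin rows and for the male pair alone were chosen after seeing the data. With 1 library in 5 tissues, no spread within those tissues could be measured.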

Other observations

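Among the keratin rows outside the symbol rule, krt2l and krt were highest in the testes, at 11.7 and 4.29 TPM, and reached 0.25 and 0.34 TPM in any other library. The row that RefSeq names krt54 and the row krt6a differed between the heads, at 1.44 and 2.45 TPM in the female head and 14.9 and 16.4 TPM in the male head. The row that RefSeq names krt12.3 stood at 83.5 TPM in the female heart, 59.0 TPM in the lung and 38.6 TPM in the ovary, and at 0.14 TPM in the male heart, where the oocyte markers had medians of 113, 120, 49.1 and 0.13 TPM. xk81a1, type I, stood at 3.15 TPM in the female heart and 3.02 TPM in the lung and at no more than 0.22 TPM elsewhere. No test was run on these rows singly, and the part of oocyte RNA in them was not tested.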
